A study of Mus musculus with 6 samples.

Results

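The IFIT and IFITM families are 2 groups of antiviral effectors named for their induction by interferon. The members were chosen by name: Ifit1, Ifit2, Ifit3 and Ifit3b, and Ifitm1, Ifitm2 and Ifitm3. All 7 genes were found. They lie on 6 of the 23406 named rows kept from each library, because Ifit3 and Ifit3b share 1 row. Expression was measured in 6 libraries of total RNA, depleted of ribosomal RNA, from mouse embryonic fibroblasts that received OSKM (Oct4, Sox2, Klf4 and Myc, the factors that turn fibroblasts into induced pluripotent stem cells) and were taken at day 7 of reprogramming. KO cells carried floxed Adar1 on both alleles (Fl/Fl) and received 4-hydroxytamoxifen, 4OHT (n = 2). WT cells had the same Fl/Fl alleles with vehicle (n = 2). MUT cells combined a floxed allele with an E861A allele (Fl/E861A) and received 4OHT (n = 1), and HET cells had the Fl/E861A alleles with vehicle (n = 1). All 6 libraries share the factors, the day and at least 1 floxed allele.

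Cre recombinase fused to a hormone receptor is commonly switched on with 4OHT, but the labels name neither the Cre, its driver nor the deleted exons. Libraries with 4OHT and an unfloxed Adar1 were not analysed here, and the drug's own effect and the loss of ADAR1 cannot be told apart. E861A lies in the deaminase domain and is known to leave a protein that binds RNA without editing it. Whether the paired libraries are separate cultures is not given in the labels, and p-values therefore cover only the spread between libraries, which may be technical.

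Both families act against RNA viruses at different points. IFIT proteins are cytosolic proteins built of tetratricopeptide repeats that bind foreign RNA or one another and restrict its translation. Their genes are scarcely read in resting cells and are among the most inducible of all interferon targets. IFITM proteins sit in the plasma membrane and in endosomes, where they hinder fusion of viral envelopes. In the mouse, Ifitm1 and Ifitm3 are also known as markers of forming germ cells, and pluripotent cells are known to hold IFITM transcripts without interferon. ADAR1 edits double-stranded RNA that would otherwise be sensed as foreign and lead to interferon.

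The IFIT genes form 1 cluster on chromosome 19 (GRCm38). Ifit2 (ENSMUSG00000045932.12) lies at 34550694 to 34576419, Ifit3 (ENSMUSG00000074896.3) at 34583531 to 34588731, Ifit3b (ENSMUSG00000062488.9) at 34607970 to 34613401 and Ifit1 (ENSMUSG00000034459.8) at 34640871 to 34650009, all on the plus strand. The IFITM members lie on chromosome 7. Ifitm2 (ENSMUSG00000060591.9) lies at 140954837 to 140955987 on the minus strand, Ifitm1 (ENSMUSG00000025491.14) at 140967221 to 140969825 on the plus strand and Ifitm3 (ENSMUSG00000025492.6) at 141009586 to 141010770 on the minus strand. All 7 are annotated as protein-coding. The coding sequences of Ifit3 and Ifit3b are each 1209 bases long and 99.1% identical, so their shared row is read here as the pair. Ifit1 and Ifit2 are 58.9% identical, Ifitm2 and Ifitm3 76.4%, and Ifitm1 is 60.4% and 63.5% identical to Ifitm2 and Ifitm3.

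Interferon acts on such genes through the factor ISGF3, which binds the interferon-stimulated response element. Its core was searched as GAAANNGAAA on both strands, in windows from 250 bases before to 50 bases after each RefSeq start (GRCm38.p6). Upstream stretches that meet no annotated exon are shown for Ifit1 and Ifit3, which have pairs of matches, and for Ifitm1, which has none. For Ifitm2 and Ifitm3, 30 bases around the matches are shown. Capitals mark the matches, and each is read 5′ to 3′ on the strand of its gene.
Ifit1, chr19:34640744-34640870, plus strand: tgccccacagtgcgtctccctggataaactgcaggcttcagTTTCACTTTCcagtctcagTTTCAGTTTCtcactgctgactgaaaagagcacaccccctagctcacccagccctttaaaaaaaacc
Ifit3, chr19:34583279-34583528, plus strand: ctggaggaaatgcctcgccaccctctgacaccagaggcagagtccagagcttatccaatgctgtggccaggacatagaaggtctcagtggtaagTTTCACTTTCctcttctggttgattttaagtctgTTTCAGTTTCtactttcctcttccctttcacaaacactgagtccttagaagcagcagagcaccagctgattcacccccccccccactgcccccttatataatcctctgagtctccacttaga
Ifitm3, chr7:141010714-141010743, minus strand: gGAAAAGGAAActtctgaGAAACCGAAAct
Ifitm2, chr7:140955988-140956017, minus strand: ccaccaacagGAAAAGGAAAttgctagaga
Ifitm1, chr7:140967826-140968027, plus strand: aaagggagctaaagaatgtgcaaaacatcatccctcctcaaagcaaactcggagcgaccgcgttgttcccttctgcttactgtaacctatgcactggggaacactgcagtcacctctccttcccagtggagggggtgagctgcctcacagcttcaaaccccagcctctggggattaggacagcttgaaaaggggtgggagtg

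Matches were found for 5 of the 7 members, against 1079 of all 27025 genes with a window (3.99%). At least 2 matches were found for Ifit1, Ifit3, Ifit3b and Ifitm3, against 72 of 27025 genes (0.266%). The motif is not particular to the members. Of the other interferon-stimulated genes listed below, 6 of 16 with a window had a match (37.5%) and 2 had at least 2. Of 6 other genes of both families, 2 had a match. The Ifit1 matches begin 104 and 85 bases before the start, those of Ifit3 156 and 122 bases before it, and those of Ifit3b 188 and 154 bases before it. The Ifit3 and Ifit3b matches have the same letters. The Ifitm3 matches lie inside the first exon, beginning at bases 3 and 20 of the transcript, and the single match of Ifitm2 begins 46 bases before the start. Both windows of Ifit2 and the window of Ifitm1 have no match, which says only that these letters are not in those windows. The GENCODE gene Ifitm1 begins upstream of its RefSeq window, and only the RefSeq window was searched. The interferon-gamma activated site was searched as TTCNNNGAA, which reads the same on both strands. It matched in 1 window each of Ifit2 and Ifitm3, where it overlaps the second response element, against 8.30% of all windows.

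**Figure D1:**
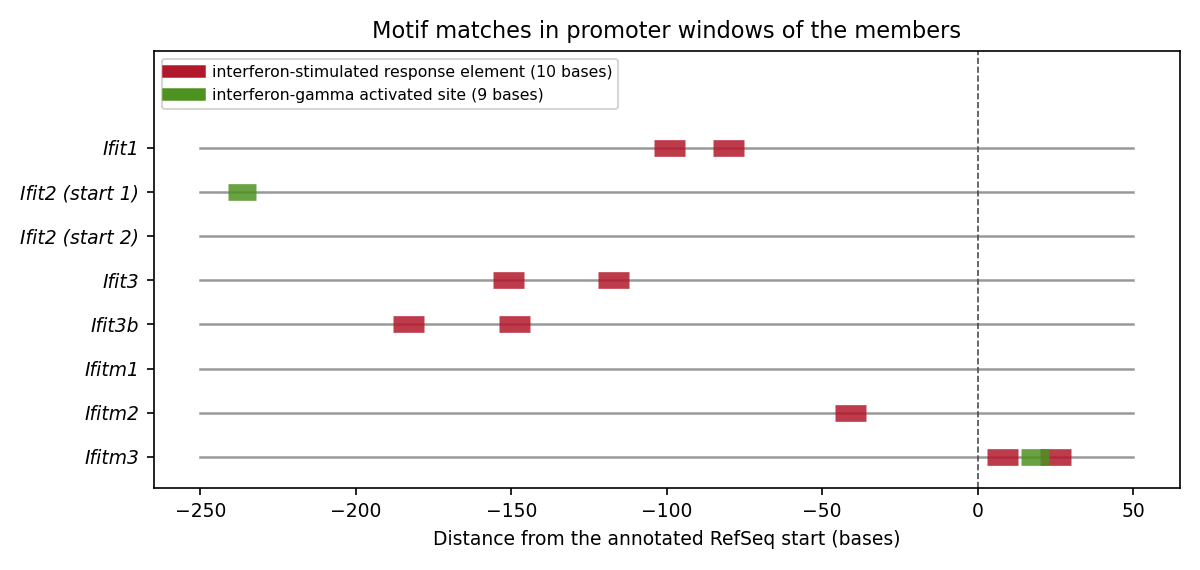
Matches of the response element (red, 10 bases) and of the interferon-gamma activated site (green, 9 bases) in the 8 promoter windows of the 7 members, by distance from the annotated RefSeq start in bases. Matches lie before the start for Ifit1, Ifit3, Ifit3b and Ifitm2 and after it for Ifitm3.

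The deposited values are FPKM, fragments scaled to transcript length and library total, so levels may be compared between genes. The files give no read totals, and depth, read from the steps between low values, came to about 15400000 to 20800000 fragments in each library. Adar, the targeted gene, had 34.2 and 31.3 FPKM in KO cells, against 19.6 and 19.5 FPKM in WT cells, and 33.0 FPKM in MUT cells, against 17.0 FPKM in HET cells. Summed over the gene, FPKM need not show a deleted exon or a point change, so Adar does not check the labels, on which the directions below rest. Of 7 fibroblast markers, all had more than 8 FPKM in every library. Of the marker genes for dendritic cells and lymphocytes, Nkg7 was listed at 0 in all 6 libraries, and Flt3 and Cd3e in all 3 with 4OHT. Ptprc, which marks all leukocytes, had at most 0.08 FPKM.

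KO was set against WT for the effect of losing ADAR1 in cells under reprogramming. The IFIT rows rose and the IFITM rows did not. All 3 IFIT rows rose, Ifitm1 and Ifitm2 fell, and Ifitm3, the most abundant member, was not called. All 6 rows passed the filter on low values. The median difference was 2.22 for the IFIT rows and -1.18 for the IFITM rows on the log2(FPKM + 1) scale, against 0.02 over the 12266 rows tested. Limma called 57.7% of all tested rows (adjusted p below 0.05), of which KO was higher in 29.5% of rows and lower in 28.2%, so a call is common in this comparison. Groups that do not overlap are common too. All 3 libraries with 4OHT lay apart from all 3 with vehicle in 59.9% of rows, and the share for KO and WT alone was not counted.

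Ifit1, which binds viral RNA whose cap lacks the methylation of host messages, had 232 and 220 FPKM in KO cells, against 51.1 and 71.0 FPKM in WT cells. The groups did not overlap, and the WT libraries stood further apart than the KO libraries. The mean was 226 ± 8.48 FPKM in KO and 61.0 ± 14.1 FPKM in WT cells (SD, n = 2 each), 3.71-fold higher, with a log2 difference of 1.89 (SE 0.14, limma adjusted p = 1.46e-06). MUT cells had 206 FPKM, against 28.4 FPKM in HET cells, 7.27-fold.

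Ifit2, an RNA-binding partner of the other IFIT proteins that is also linked to cell death, was the lowest IFIT row and had the largest relative difference of the 3. It had 133 and 102 FPKM in KO cells, against 8.03 and 14.9 FPKM in WT cells. The groups were apart by more than the spread within either, although WT 2 was 1.85 times WT 1. The mean was 118 ± 21.8 FPKM in KO and 11.4 ± 4.83 FPKM in WT cells, 10.3-fold higher, with a log2 difference of 3.30 (SE 0.22, adjusted p = 7.34e-07). In MUT cells it had 82.5 FPKM, against 7.15 FPKM in HET cells, 11.5-fold.

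The row of Ifit3 and Ifit3b, whose proteins lack a deep RNA pocket and in human cells stabilise IFIT1, was the most abundant IFIT row in every library. It had 597 and 591 FPKM in KO cells, against 100 and 160 FPKM in WT cells. KO libraries differed by less than WT libraries, and the groups did not overlap. The mean was 594 ± 3.95 FPKM in KO and 130 ± 42.1 FPKM in WT cells, 4.57-fold higher, with a log2 difference of 2.22 (SE 0.17, adjusted p = 2.35e-06). MUT cells had 673 FPKM, against 59.5 FPKM in HET cells, 11.3-fold. The values do not separate the gene pair.

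**Figure D2:**
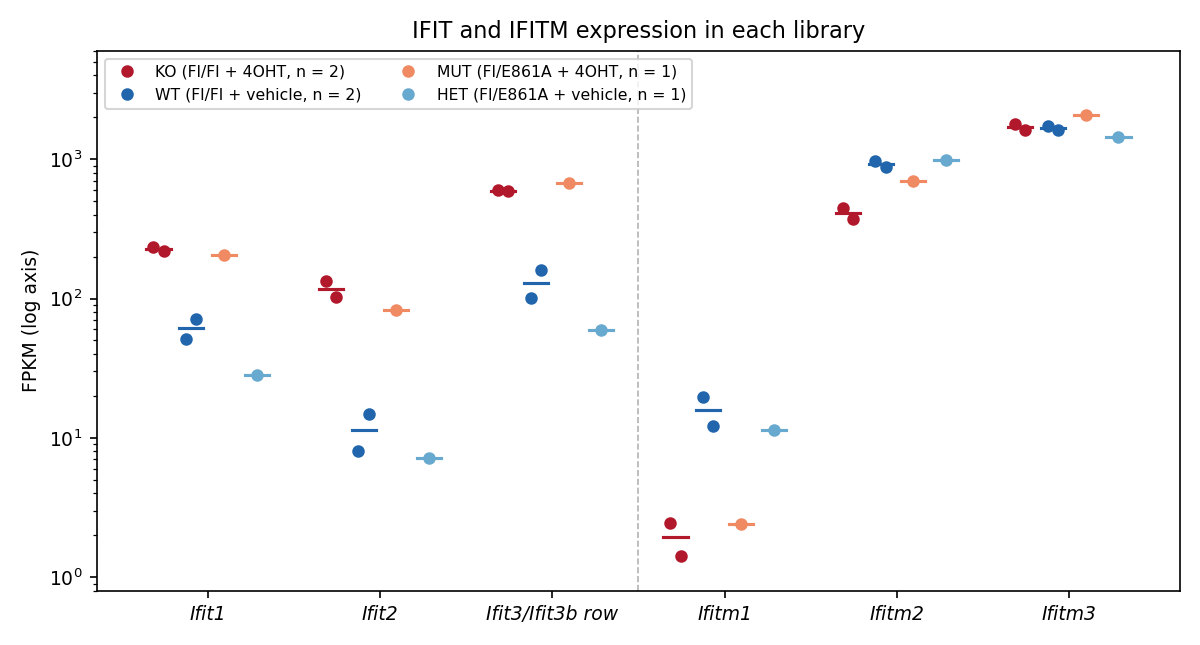
FPKM of the 6 member rows (log axis) in each library, with 1 point per library and a line at the group mean, for KO (n = 2), WT (n = 2), MUT (n = 1) and HET (n = 1). KO and MUT points lie above all WT and HET points for the 3 IFIT rows and below them for Ifitm1 and Ifitm2, while Ifitm3 stays between 1436 and 2069 FPKM.

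Ifitm1, which acts mainly at the cell surface, was the lowest member in every 4OHT library. It had 2.45 and 1.43 FPKM in KO cells, against 19.7 and 12.1 FPKM in WT cells. KO 1 was 1.72 times KO 2 and WT 1 was 1.63 times WT 2, yet the groups stayed apart. The mean was 1.94 ± 0.73 FPKM in KO and 15.9 ± 5.36 FPKM in WT cells, and WT was thus 8.19 times KO. The log2 difference was -2.51 (SE 0.21, adjusted p = 3.9e-06). MUT cells had 2.41 FPKM, against 11.5 FPKM in HET cells.

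Ifitm2, which like Ifitm3 acts in endosomes, fell less. It had 446 and 372 FPKM in KO cells, against 972 and 879 FPKM in WT cells. The mean was 409 ± 52.5 FPKM in KO and 925 ± 65.7 FPKM in WT cells, with a log2 difference of -1.18 (SE 0.12, adjusted p = 1.23e-05). The difference was several times the spread within either group. MUT cells had 702 FPKM, against 980 FPKM in HET cells, a smaller gap in which MUT lay between KO and the vehicle libraries.

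Ifitm3, the best known restrictor of influenza virus entry in this family, had 1801 and 1619 FPKM in KO cells, against 1730 and 1630 FPKM in WT cells. The groups overlapped. The mean was 1710 ± 129 FPKM in KO and 1680 ± 70.6 FPKM in WT cells, and the log2 difference was 0.02 with a 95% interval from -0.22 to 0.26 (adjusted p = 0.863). It ranked between 19 and 54 among the 23406 named rows in all 6 libraries. MUT cells had 2069 FPKM, the highest value of the 6, against 1436 FPKM in HET cells, the lowest.

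**Figure D3:**
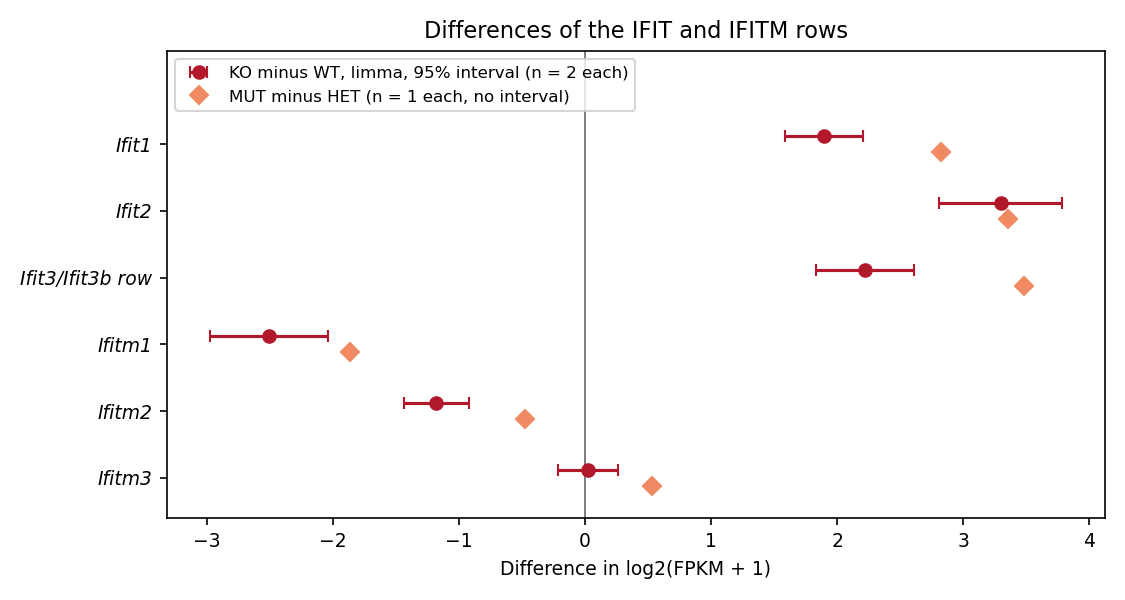
Difference in log2(FPKM + 1) of the 6 member rows, for KO minus WT with limma's 95% interval (red circles, n = 2 each) and for MUT minus HET (orange diamonds, n = 1 each, no interval). The IFIT rows lie between 1.89 and 3.48, Ifitm1 and Ifitm2 lie below 0 in both comparisons, and Ifitm3 lies at 0.02 and 0.53.

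MUT was set against HET for the loss of editing with the E861A protein still encoded. This comparison has 1 library on each side and is given without a test. The differences on the log2 scale were 2.82 for Ifit1, 3.36 for Ifit2, 3.48 for the Ifit3 and Ifit3b row, -1.87 for Ifitm1, -0.48 for Ifitm2 and 0.53 for Ifitm3. Thus all 3 IFIT rows were at least 2-fold higher in MUT, against 4.93% of all tested rows, and Ifitm1 was at least 2-fold lower, against 8.77% (13.7% in either direction). Ifitm2 and Ifitm3 stayed within 2-fold.

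The effects in both backgrounds were then compared in 1 fit over the 6 libraries, in which the lone MUT and HET libraries were assumed to vary like the pairs. Of the 6 rows the shared row of Ifit3 and Ifit3b was called, with an effect larger by 1.26 in the Fl/E861A background (SE 0.30, 95% interval 0.59 to 1.93, adjusted p = 0.0484), against 3.07% of all rows called in that direction and 4.01% in either. This call is marginal, with an adjusted p of 0.0645 with a pseudocount of 0.1 and 0.328 with no filter on low values. With 1 library left out, the effect on this row was larger by 0.93 (without WT 2) to 1.59 (without WT 1). The effect on Ifit1 was larger by 0.93 and was not called (adjusted p = 0.0657). Its adjusted p was 0.0786 with a pseudocount of 0.1 and 0.322 with no filter on low values. It was 0.0403 with a filter of at least 5 FPKM, 0.024 with quantile normalization and 0.0415 with median-of-ratios scaling. With 1 library left out, the Ifit1 effect was larger by 0.69 (without WT 2) to 1.16 (without WT 1). The difference between the effects was 0.06 for Ifit2 (95% interval -0.79 to 0.91, adjusted p = 0.96), 0.64 for Ifitm1 (-0.18 to 1.46, adjusted p = 0.413), 0.70 for Ifitm2 (0.25 to 1.15, adjusted p = 0.0929) and 0.50 for Ifitm3 (0.09 to 0.92, adjusted p = 0.192). With 1 library left out, the difference ranged from 0.31 to 0.97 for Ifitm1, from 0.57 to 0.83 for Ifitm2 and from 0.43 to 0.58 for Ifitm3. Fits with 1 library left out leave 1 library in a paired group, and their p-values are not given.

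The lone HET and MUT libraries were set side by side with the WT and KO pairs. With 1 library each, a difference between the backgrounds and one between single libraries cannot be told apart. HET lay below both WT libraries for all 3 IFIT rows, and for Ifitm1 and Ifitm3, against 39.1% of all tested rows. It lay above both for Ifitm2, against 41.8%. Among libraries with 4OHT, MUT lay below both KO libraries for Ifit1 and Ifit2 (44.7% of all rows) and above both for the Ifit3 row, Ifitm2 and Ifitm3 (34.6%). For Ifitm1 it lay between them. The WT libraries also differed from each other in 1 direction across the IFIT rows, with WT 2 above WT 1 by 1.39 times for Ifit1, 1.85 times for Ifit2 and 1.59 times for the Ifit3 row, while 55.9% of all rows were higher in WT 2.

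With the 3 libraries with 4OHT set against the 3 with vehicle and the allele background as a term, limma called the same 5 rows in the same directions. This fit shares the KO and WT libraries with the comparison above and adds no independent support. The log2 difference was 2.2 (SE 0.19, adjusted p = 3.33e-05) for Ifit1, 3.32 for Ifit2, 2.64 for the Ifit3 row, -2.29 for Ifitm1, -0.95 (SE 0.15, adjusted p = 0.00098) for Ifitm2 and 0.19 (adjusted p = 0.225) for Ifitm3. Over all tested rows this fit called 57.4%, with 29.2% higher and 28.2% lower. The libraries with 4OHT lay above all those with vehicle for the 3 IFIT rows, against 30.6% of all rows, and below them for Ifitm1 and Ifitm2, against 29.3% (59.9% in either direction).

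The families also differed in their summed FPKM, which is scaled to transcript length and is not a share of the RNA mass. The IFIT rows summed to 962 and 914 FPKM in KO cells, against 159 and 246 FPKM in WT cells, and to 962 FPKM in MUT cells, against 94.98 FPKM in HET cells. The IFITM rows summed to 2250 and 1992 FPKM in KO cells, against 2721 and 2521 FPKM in WT cells, and to 2774 FPKM in MUT cells, against 2427 FPKM in HET cells. The IFIT sum was 4.63-fold higher in KO than in WT, and the IFITM sum in KO was 0.809 times that in WT. IFIT transcripts made up 29.96% and 31.5% of both sums together in KO cells, against 5.54% and 8.88% in WT cells, and 25.7% in MUT cells, against 3.77% in HET cells. The IFITM sum remained above the IFIT sum in all 6 libraries.

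The make-up of each family differed between libraries with 4OHT and with vehicle. Ifit2 made up 13.8% and 11.2% of the IFIT sum in KO cells, against 5.04% and 6.05% in WT cells, and 8.57% in MUT cells, against 7.53% in HET cells. Ifit1 made up 24.2% and 24.1% in KO, against 32.0% and 28.9% in WT cells, and 21.4% in MUT cells, against 29.9% in HET cells. The Ifit3 row held 62.0% to 70.0% of the sum in every library. Within the IFITM family, Ifitm2 was 0.248 and 0.230 times Ifitm3 in KO cells, against 0.562 and 0.539 times in WT cells, and 0.339 times in MUT cells, against 0.683 times in HET cells. That ratio did not overlap between libraries with 4OHT and with vehicle. Ifitm1 never exceeded 0.723% of the IFITM sum.

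**Figure D4:**
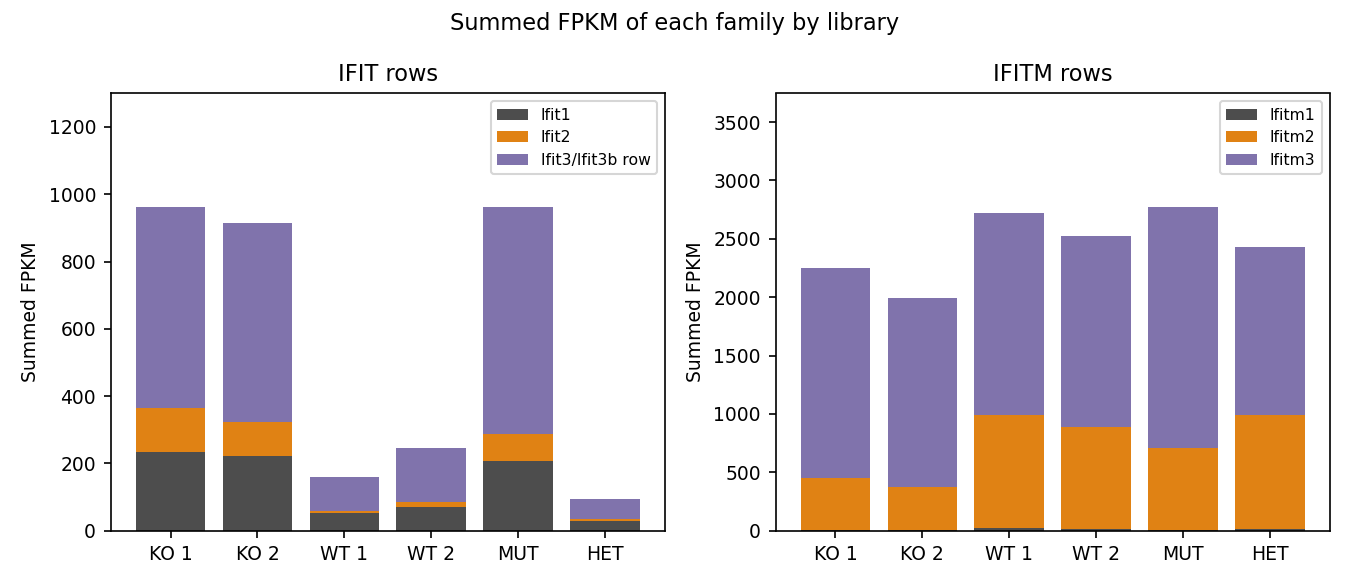
Summed FPKM of the IFIT rows (left) and of the IFITM rows (right) in each library, stacked by row, with both vertical axes starting at 0 and differing in scale. The IFIT sum lies between 914 and 962 in the 3 libraries with 4OHT and between 94.98 and 246 in the 3 with vehicle, while the IFITM sum lies between 1992 and 2774 in all 6.

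In order of level, Ifitm3 and Ifitm2 led in the vehicle libraries, followed by the Ifit3 row and Ifit1. Ifit2 and Ifitm1 came last and changed places, with Ifitm1 above Ifit2 in WT 1 and HET and below it in WT 2. In both KO libraries the Ifit3 row stood above Ifitm2, whereas in MUT the values of 673 and 702 FPKM were close, with Ifitm2 above. Ifitm1 was last in all 3 libraries with 4OHT. By rank among all named rows, Ifit2 stood at 635 and 904 in KO cells, against 7545 and 5481 in WT cells.

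Other genes of both families were low. Ifit1bl2, which lies head to head with Ifit1 and shares its matches, rose and had 1.33 and 1.13 FPKM in KO cells, against 0.23 and 0.29 FPKM in WT cells (log2 difference 0.82, SE 0.14, adjusted p = 0.000492). Ifit1bl1 had 2.77 and 2.83 FPKM in KO cells, against 1.14 and 3.09 FPKM in WT cells, and was not called (adjusted p = 0.216). It had 3.65 FPKM in MUT cells, against 0.47 FPKM in HET cells. The coding sequences of Ifit1bl1 and Ifit1bl2 are each 75.7% identical to that of Ifit1, so a few reads of the much higher Ifit1 could be counted there, which was not tested. Ifitm10, a distant relative on chromosome 7, fell to 2.81 and 2.53 FPKM in KO cells, against 8.79 and 8.56 FPKM in WT cells (log2 difference -1.40, SE 0.11, adjusted p = 2.21e-06). Ifitm6 was not called (adjusted p = 0.0939), and Ifitm5, a gene of bone-forming cells, and Ifitm7 did not pass the filter.

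The listed interferon signalling genes rose in part. Of 16 genes of interferon production, reception and signalling, 11 rose in KO, against 29.5% of all tested rows. None fell, against 28.2%, and 5 were not called. The median log2 difference of these 16 genes was 0.36. The 4 with the smallest p were Usp18, an inducible brake on the receptor, Irf1 and Irf7, transcription factors of the interferon response, and Stat2, a subunit of ISGF3. Usp18 had 185 and 196 FPKM in KO cells, against 43.7 and 51.8 FPKM in WT cells. Stat2 had 79.3 and 76.1 FPKM in KO cells, against 35.4 and 39.3 FPKM in WT cells. The row of Irf9, the DNA-binding subunit of ISGF3, is shared with Rnf31 and rose by 0.60 on the log2 scale. Ifnb1, which encodes interferon beta and was named after its values were seen, had 2.91 and 1.29 FPKM in KO cells, against 0.10 and 0.35 FPKM in WT cells, and 1.56 FPKM in MUT cells, and it was listed at 0 in HET cells. Not called were the receptor chain Ifnar1, the kinase Tyk2, the factors Irf3 and Stat3, and the inhibitor Socs1, with log2 differences between -0.20 and 0.14.

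Of 22 other interferon-stimulated genes, 21 rose in KO, against 29.5% of all tested rows. None fell, against 28.2%, and 1 was not called. The median log2 difference of these 22 genes was 1.64. Smallest in p were Zbp1, a sensor of left-handed nucleic acids, Ifi44, Herc6, a ligase for ISG15, and Isg15 itself. Zbp1 had 85.3 and 78.4 FPKM in KO cells, against 20.02 and 17.8 FPKM in WT cells. Ifi44 had 141 and 141 FPKM in KO cells, against 35.0 and 40.9 FPKM in WT cells. The row of Dhx58, shared with Kat2a, was not called (log2 difference 0.03, adjusted p = 0.811). The IFIT median of 2.22 and the Ifit2 difference of 3.30 lie above the median of this list, and the IFITM median of -1.18 lies below all 22 values. In MUT against HET, all 22 were higher, with a median log2 difference of 2.1, and 15 of the 16 signalling genes were higher, with a median of 0.79. Over all tested rows 50.6% were higher in MUT, with a median of 0.01. With the spread of the lone MUT and HET libraries assumed as above, a larger effect in the Fl/E861A background was called for Stat2 and Irf7 among the signalling genes, and for Oasl2 and Ifi44 among the stimulated genes.

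**Figure D5:**
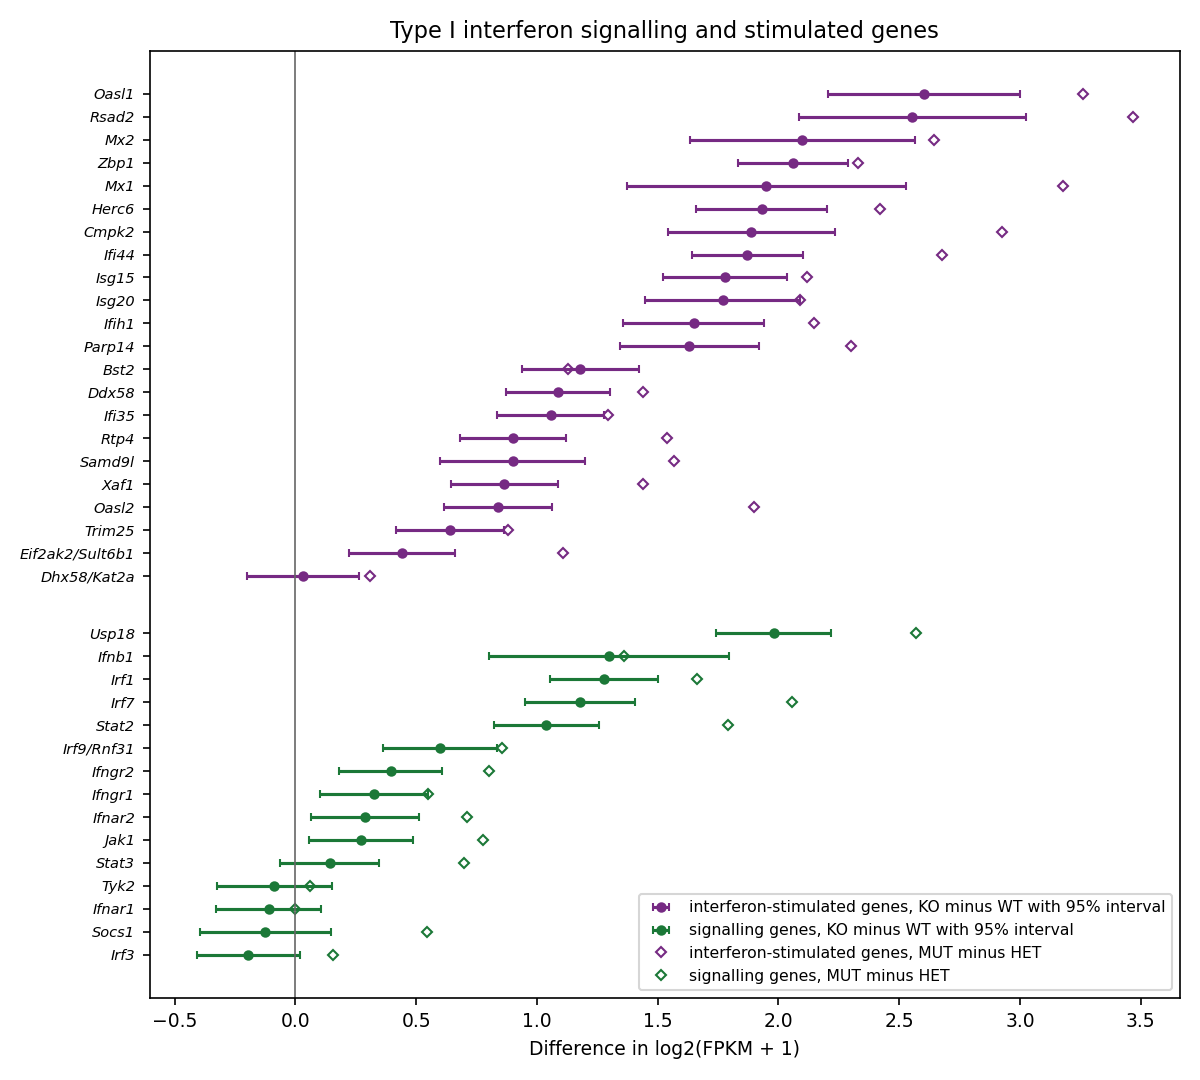
Difference in log2(FPKM + 1) of 22 interferon-stimulated genes (purple, upper block) and 15 of the 16 interferon signalling genes (green, lower block), for KO minus WT with limma's 95% interval (filled circles, n = 2 each) and MUT minus HET (open diamonds, n = 1 each). Row names joined by a slash mark rows that name 2 genes. Oasl1 and Rsad2 lead at 2.60 and 2.55 in KO minus WT.

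Profiles over the 6 libraries were compared by the root mean square difference of log2(FPKM + 1) values centred on each gene's mean, among 8759 rows with a mean of at least 5 FPKM. Nearest to the mean IFIT profile were Rsad2, which encodes viperin (difference 0.10), Mx2 (0.23), Cd274, which encodes the ligand PD-L1 (0.24), Cmpk2 (0.26) and Mx1 (0.27). Rsad2 had 84.4 and 73.5 FPKM in KO cells, against 9.18 and 17.1 FPKM in WT cells, and 71.6 FPKM in MUT cells, against 5.56 FPKM in HET cells. Nearest to Ifitm1 were Apoe (0.23), Mmp2 (0.25), Sfrp2 (0.25), Cx3cl1 (0.27) and Islr (0.27). Apoe, a lipid carrier, had 28.7 and 26.3 FPKM in KO cells, against 223 and 165 FPKM in WT cells. Among the nearest to Ifitm2 were A4galt (0.08), Tle2 (0.08), Plod1 (0.09) and Ephb3 (0.10), and nearest to Ifitm3 were Antxr1 (0.03), Hivep2 (0.04), Timp1 (0.04), Nab2 (0.05) and Map1a (0.05). These differences describe likeness over 6 libraries that fall into few groups.

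Markers of cell state moved with the same libraries. Of all 12266 rows tested, 28.2% fell in KO and 29.5% rose, so a few calls in a short list are common. Of 8 pluripotency markers all 8 fell in KO, and their summed level was 15.6 to 29.997 FPKM in KO cells, against 494 to 620 FPKM in WT cells, and 43.6 FPKM in MUT cells, against 622 FPKM in HET cells. Nanog had 0.20 and 0.12 FPKM in KO cells, against 20.8 and 15.2 FPKM in WT cells, and Pou5f1 and Epcam, an epithelial marker, both fell in KO, with log2 differences of -5.14 for Pou5f1 and -4.44 for Epcam. Pou5f1, which encodes Oct4, and Sox2 are also OSKM factors. Their values may include reads of the copies given to the cells, which was not tested. Pou5f1 alone had 222 and 175 FPKM in WT cells. Of 7 fibroblast markers 5 fell in KO and Thy1 and Vim were not called, with a summed level of 2385 to 2390 FPKM in KO cells, against 4610 to 4999 FPKM in WT cells. Of 4 germ cell markers, Dppa3 and Ddx4 fell and 2 did not pass the filter, with a summed level of 0.94 to 0.95 FPKM in KO cells, against 10.1 to 12.7 FPKM in WT cells. Of 7 macrophage markers 4 were tested. Laptm5, also found in other blood cells, fell on a row of its own, and the row that names Cd68 fell too but is shared with Eif4a1, an abundant translation factor, and Senp3. Tyrobp and the shared row of Lyz1 and Lyz2 were not called. The macrophage markers on rows of 1 gene had a summed level of 5.12 to 5.99 FPKM in KO cells, against 21.4 to 25.5 FPKM in WT cells. Laptm5 made up most of the WT sum, with 3.31 and 2.83 FPKM in KO cells, against 23.4 and 19.9 FPKM in WT cells. Of the rest, Tyrobp and Csf1r had higher means in KO, and Adgre1 and Ptprc lower ones, so the summed fall is that of Laptm5. Of 6 endothelial markers 4 were tested, 1 rose and 3 fell, with a summed level of 5.37 to 5.40 FPKM in KO cells and 6.03 FPKM in both WT libraries. None of 3 bone markers passed the filter. The part of these markers in the falls of Ifitm1 and Ifitm2 was not tested. In bulk samples, fewer cells of a type and less RNA per cell cannot be told apart.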

How the data were processed

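Per the labels' protocols, TRIzol was used for extraction and Ribo-Zero for removal of ribosomal RNA. The submitters' processing notes name Cufflinks 2.2.1, TopHat2 2.1.1 and Bowtie2 2.3.0, and GRCm38 and mm10 as builds, with no role given. The annotation, any use of strand and any scaling across libraries were not given in the sources. The values the authors deposited are FPKM of each row, as the headers name them, so no count test was run. Overlapping and antisense genes may share reads, as may near-identical copies.

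Rows without a name (1021) were left out, and for 314 names on several rows the one of highest mean FPKM was used. Values were analysed as log2(FPKM + 1), a scale that understates the change of low genes, with limma 3.58.1 in R 4.3.3 (two-sided, trended eBayes, adjusted by Benjamini-Hochberg over all rows tested, called under 0.05). Rows with at least 1 FPKM in at least 2 of 6 libraries were tested (12266). Folds are ratios of mean FPKM. Depth was estimated from 4041 single-transcript genes, assuming fragments of 200 bases. The fits were tested on simulated data. Alternatives were the pseudocount, filters, scaling, row sums, leaving out libraries, a replicate block, a fit over 6 libraries and eBayes without trend.

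The members and lists were chosen with earlier results of these data known. Named genes are all members and relatives, the 4 of smallest p and those not called in each interferon list with up to 2 others, and the 5 nearest profiles, leaving out predicted and small RNA genes; other genes were named after their values were seen. Some genes of these lists are not reported here by name. Positions are from GENCODE M 21, and promoter sequences from RefSeq (7 of 7 members matched).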

Additional observations from a re-analysis of the deposited data

Results flagged for a closer look

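The difference between the effects of 4OHT in both allele backgrounds was called for the shared row of Ifit3 and Ifit3b, marginally. It was 1.26 on the log2 scale, Fl/E861A minus Fl/Fl (SE 0.30, limma adjusted p = 0.0484), with values of 673 FPKM in MUT and 59.5 FPKM in HET cells, and 597 and 591 FPKM in KO, against 100 and 160 FPKM in WT cells. MUT and HET are 1 library each, with a spread assumed to be that of the pairs. The call was lost in 3 of 10 alternatives. These were the fit without WT 2, a pseudocount of 0.1 (adjusted p = 0.0645) and no filter on low values (adjusted p = 0.328). A difference between the backgrounds is thus not established.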

How the results depend on the processing

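In KO against WT, Ifit1, Ifit2, the Ifit3 row, Ifitm1 and Ifitm2 kept their direction and their call under all 13 alternatives run, with the highest adjusted p at 0.00893, 0.00993, 0.0122, 0.0148 and 0.011. Ifitm3 was not called under any of the 13, and its log2 difference changed sign with quantile normalization (-0.037), without WT 2 (-0.019) and without KO 1 (-0.053), with a range of -0.053 to 0.101 with 1 library left out. In 4OHT against vehicle all 6 rows kept direction and call under all 10. The difference between the effects depended most on the processing. Its count over all rows, 492 with limma, was 0 with no filter on low values (2814 at an unadjusted p under 0.05) and 286 to 1192 with 1 library left out (the lone library is then assumed to vary like the remaining pair), 286 without WT 2, 1192 without KO 1 and 904 without KO 2. Among alternatives that keep all 6 libraries, the Ifit1 difference was called with the filter at 5 FPKM, quantile normalization and median-of-ratios scaling. That of Ifitm2 was called with quantile normalization (adjusted p = 0.0171). The Ifit2 difference turned to -0.35 without WT 2 and to -0.13 without KO 2, with a range of -0.35 to 0.466 with 1 library left out. A fit of MUT against HET with the spread pooled from the pairs rests on an assumed spread, and its p-values are not given. The replicate number as a replicate block called 7959 rows in KO against WT, against 7080 without it, and changed no call of a member. Same-numbered libraries had a correlation of 0.18 in their deviations, and with 2 pairs the numbers do not show pairing. Ifitm1 in KO and the other family genes are near 1 to 3 FPKM, where few fragments limit the precision.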
